A study of Mus musculus with 18 samples.

Results

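The 9 matrix metalloproteinase genes Mmp2, Mmp3, Mmp9, Mmp10, Mmp11, Mmp13, Mmp14, Mmp19 and Mmp23 were taken from a fixed list of names, with every probe set annotated to them, out of 10078 genes that passed a filter on low values. They carried 15 probe sets, of which 14 passed that filter and 1, a second probe set of Mmp19, did not. All 9 genes kept at least 1 probe set. The arrays measured total RNA of mouse embryonic fibroblasts, primary connective tissue cells grown from E12.5 to E14.5 embryos (days of gestation) after head, liver and clotted blood had been taken off. There were 18 arrays in 9 groups of 2: wild type (wt), heterozygous and homozygous cells, each untreated or given transforming growth factor beta 1 (TGFb) at 5 ng/mL for 4 h or 24 h.

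The submitters' design text names a TGFb1 mutant and the series title a point mutation in its receptor TGFBR1, so the allele is called the mutant here; it is described as constitutively active. All cells, wt controls included, grew in medium with serum. The treated arrays are set against untreated arrays, 1 pair per genotype, which serve both time points, and no label ties an array to an embryo, litter or culture. The p-values therefore measure only the spread between these arrays, which may be technical. With 2 arrays a group, a group's spread rests on a single difference. The fit used below shares 1 spread per gene over all 9 groups. Over all genes, replicate arrays had a root mean square SD of 0.32 to 0.39 in wt and 0.18 to 0.22 in mutant groups. On average its p-values may therefore be too small for wt and too large for mutant cells, though single genes can differ.

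Matrix metalloproteinases are zinc-dependent enzymes, most of them secreted as inactive proenzymes, that cut collagens and other matrix proteins once a propeptide is removed. Their activity is held back by the TIMP proteins and by the membrane protein RECK, and several are activated through plasmin or furin-like proteases. In connective tissue cells TGFb is known to shift the balance between matrix deposition and matrix breakdown.

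Levels are log2 of the deposited intensities, and a level of 5 was taken as the dim limit, below which values have no order. A gene is called where limma's adjusted p, by Benjamini-Hochberg over all 10078 genes, was under 0.05. Differences are log2 with the standard error (SE) of the fit. A probe set's level is compared across groups and never with that of another probe set. If a group was under 5 in both of its arrays, the fold is a bound, set against that limit. The adjusted p beside a bound belongs to the log2 difference as measured, values under 5 included, and the bound itself was not tested.

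After TGFb for 4 h, 1 of the 9 genes was called in wt cells, Mmp9, which was higher; of all genes 20.9% were called, 9.49% higher and 11.4% lower. At 24 h 4 were called in wt cells, Mmp2, Mmp9 and Mmp10 higher and Mmp23 lower; of all genes 11.7% were called, 4.51% higher and 7.14% lower. In heterozygous cells Mmp9 alone was called at 4 h, higher, against 28.8% of all genes (15.7% higher, 13.2% lower). At 24 h Mmp9 and Mmp10 were called there, both higher, against 7.06% of all genes (2.95% higher, 4.12% lower). In homozygous cells 4 were called at 4 h, Mmp9 and Mmp10 higher and Mmp2 and Mmp11 lower, against 37.7% of all genes (20.1% higher, 17.5% lower). At 24 h 2 were called there, Mmp9 higher and Mmp11 lower, against 8.60% of all genes (3.10% higher, 5.51% lower). In homozygous cells at 4 h the members' share was near that of all genes. The median log2 difference of the 9 genes in these 6 comparisons ran from -0.54, in homozygous cells at 24 h, to 0.35, in wt cells at 24 h. The corresponding medians over all genes lay between -0.06 and 0.03. The lowest member median was the value of Mmp13 (SE 1.18), and the highest that of Mmp3 (SE 0.61). Both genes had arrays under 5 there and were not called. These extremes therefore do not show a shift of the 9 genes as a set. Mmp9 was the 1 member called in all 6 comparisons, and Mmp3, Mmp13, Mmp14 and Mmp19 were called in none of them.

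**Figure D1:**
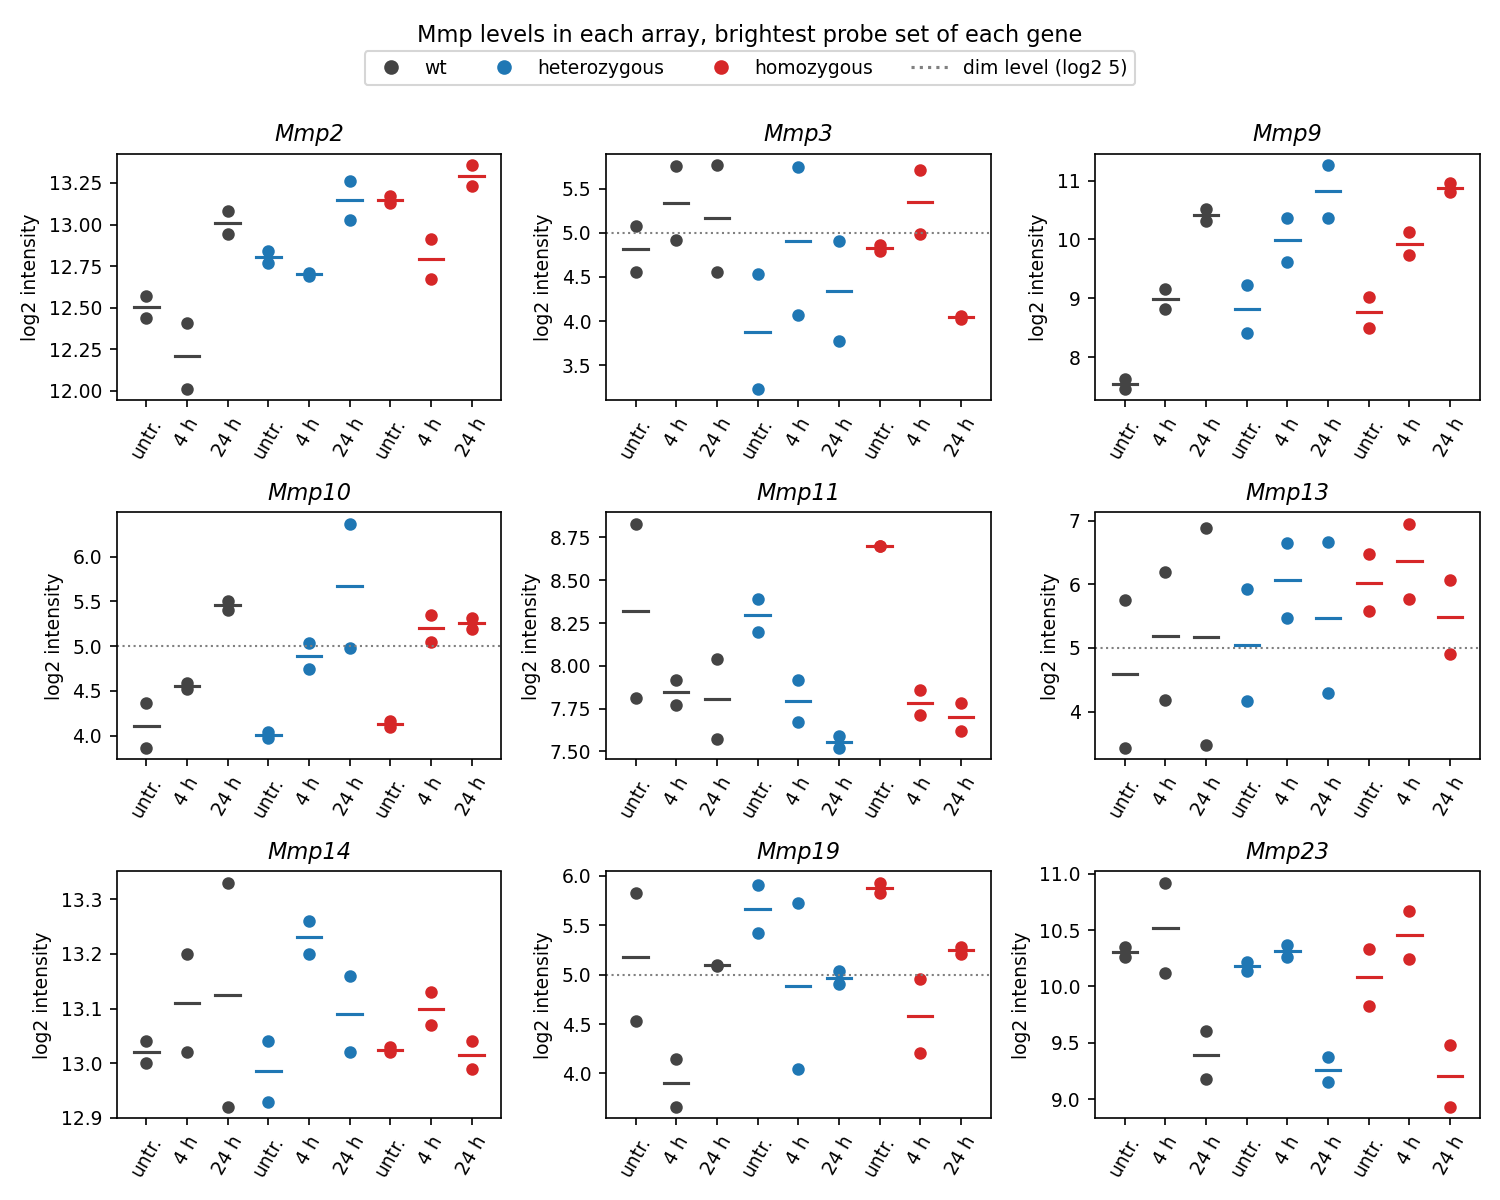
Log2 intensity (vertical axis) of the brightest probe set of each of the 9 genes in the 9 groups (horizontal axis), with 1 dot per array, a line at the mean of the 2 arrays and a dotted line at the dim level of 5 where the axis reaches it; each panel has its own axis range. Mmp9 runs from 7.46 to 11.27, while Mmp14 stays between 12.92 and 13.33.

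Mmp9 (gelatinase B), which degrades denatured collagen and basement membrane type IV collagen, rose after TGFb at both times in all 3 genotypes. In wt cells its log2 intensity was 7.63 and 7.46 untreated, 8.82 and 9.16 at 4 h, and 10.31 and 10.51 at 24 h. In heterozygous cells it was 9.23 and 8.41 untreated, 10.37 and 9.62 at 4 h, and 11.27 and 10.37 at 24 h. In homozygous cells it was 9.03 and 8.50 untreated, 10.12 and 9.74 at 4 h, and 10.96 and 10.80 at 24 h. No treated array overlapped the untreated arrays of its genotype. The rise at 4 h was 1.45 (SE 0.33) in wt, 1.17 (SE 0.33) in heterozygous and 1.16 (SE 0.33) in homozygous cells, or 2.73-fold, 2.26-fold and 2.24-fold (limma adjusted p = 0.0101, 0.0191 and 0.0159). At 24 h it was 2.86 (SE 0.33) in wt, 2.00 (SE 0.33) in heterozygous and 2.12 (SE 0.33) in homozygous cells, or 7.28-fold, 4.01-fold and 4.34-fold (limma adjusted p = 0.000153, 0.0025 and 0.00145).

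The rises of Mmp9 at 24 h passed the threshold when any 1 array was left out. Those at 4 h did not without the second wt 4 h array (1.28, adjusted p = 0.0764), the first heterozygous 4 h or second untreated heterozygous array (0.80 and 0.77, adjusted p = 0.175 and 0.187), or the first homozygous 4 h or second untreated homozygous array (0.97 and 0.90, adjusted p = 0.114 and 0.131). Fitted on the groups compared alone, 3 calls were lost: wt and heterozygous cells at 4 h and heterozygous cells at 24 h (limma adjusted p = 0.09, 0.0642 and 0.0615). Array weights ended the wt call at 4 h (adjusted p = 0.335).

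**Figure D2:**
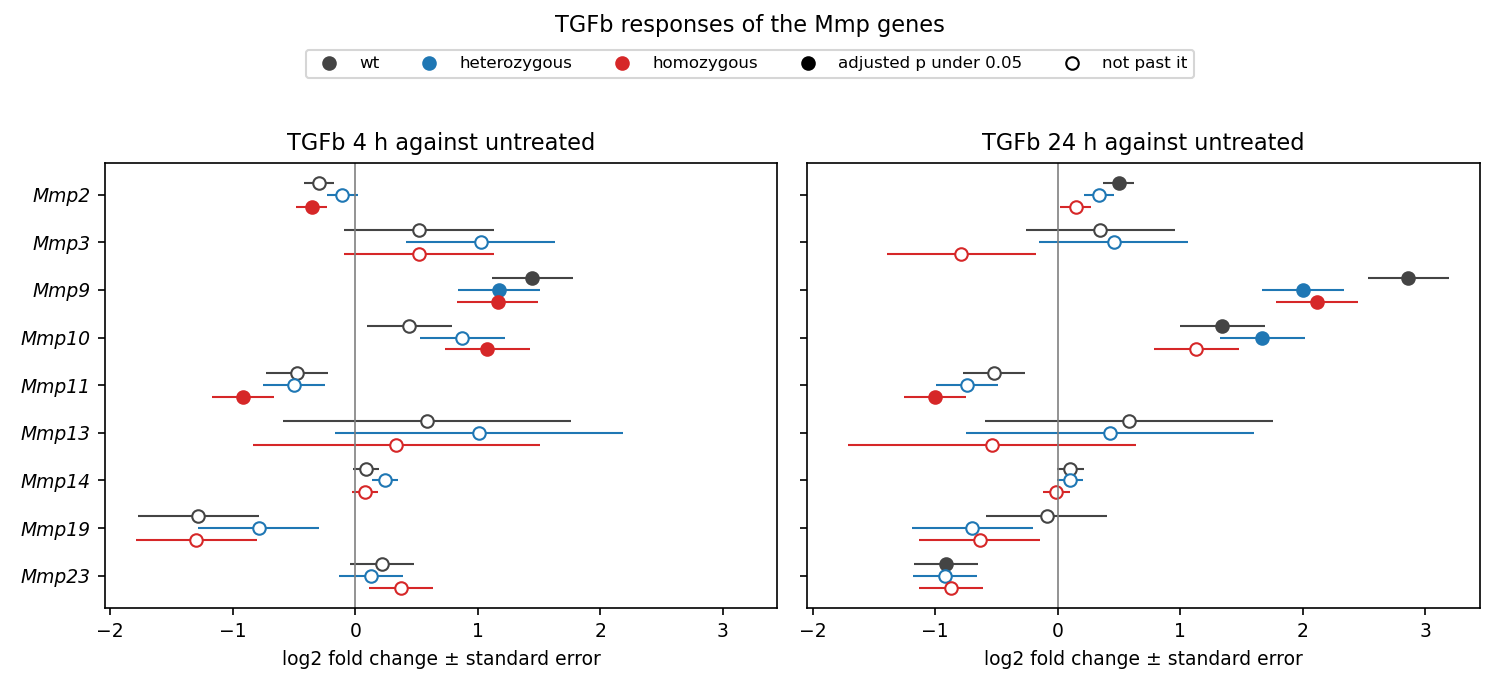
Log2 fold change (horizontal axis) of the 9 genes (vertical axis) after TGFb for 4 h (left) and 24 h (right) against untreated cells of the same genotype; bars are the standard error of the limma fit, and filled dots passed an adjusted p of 0.05. Mmp9 is filled in all 6 positions, at 1.16 to 2.86.

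The second probe set of Mmp9, tested in a fit over probe sets, gave rises of 1.97 and 3.48 in wt cells, 1.52 and 2.28 in heterozygous cells at 4 h and 24 h, and 1.71 in homozygous cells at 24 h, all called. In homozygous cells at 4 h it was 9.91 and 9.54 against 9.01 and 8.70 untreated, and was not called.

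Whether the Mmp9 response differed between genotypes was tested as an interaction. The heterozygous response minus the wt response was -0.27 (95% interval -1.29 to 0.75) at 4 h and -0.86 (-1.88 to 0.16) at 24 h. The homozygous response minus the wt response was -0.28 (-1.30 to 0.73) at 4 h and -0.74 (-1.76 to 0.27) at 24 h. Neither time gave a difference past the threshold, and on this probe set the intervals at 24 h reach from a smaller mutant response to a slightly larger one. On the second probe set the differences at 24 h were -1.20 (-2.50 to 0.10) in heterozygous and -1.78 (-3.08 to -0.48, limma adjusted p = 0.733) in homozygous cells, and neither was called. The homozygous interval of that probe set, which is not adjusted, did not reach 0. On the brightest probe sets limma called 0 of the 9 genes in each of the 4 interaction tests. There 0 of the 9 had an unadjusted p under 0.05, and the share of all genes called was 0%.

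Without TGFb, Mmp9 was measured higher in both mutant genotypes than in wt cells, with no overlap of arrays, but the difference did not pass the threshold. It was 1.27 (SE 0.33, limma adjusted p = 0.129) in heterozygous and 1.22 (SE 0.33, adjusted p = 0.0876) in homozygous cells. The second probe set read 5.87 and 7.26 in wt, 8.78 and 7.85 in heterozygous and 9.01 and 8.70 in homozygous cells, and for it the homozygous difference of 2.29 was called (adjusted p = 0.032). In order of the mean level, the homozygous, heterozygous and wt groups at 24 h stood highest, followed by the heterozygous and homozygous groups at 4 h, and each of these overlapped its neighbour. None of them overlapped the groups that followed, wt at 4 h and the untreated mutants, which overlapped each other. Untreated wt cells stood lowest, apart from the rest.

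Markers of macrophages, a cell type known to make Mmp9, differed between the genotypes in these cultures. The mean log2 level of 12 macrophage markers was 5.18 to 7.49 in the 6 wt arrays, 8.17 to 9.29 in the 6 heterozygous and 7.64 to 8.71 in the 6 homozygous arrays. All 12 passed the filter, and the number under 5 in both arrays of a group was highest in wt cells at 24 h, 5 of 12. In untreated cells 5 of the 12 were called higher in heterozygous than wt cells, with a median difference of 2.61, and 2 of 12 in homozygous cells, with a median of 1.98. Of all genes 0.774% and 1.15% were called higher in these comparisons. More cells of a type and more RNA per cell cannot be told apart in such bulk samples. With the mean marker level as a covariate, chosen after the data were seen, the untreated Mmp9 differences were 0.40 (limma adjusted p = 0.698) and 0.55 (adjusted p = 0.476). The marker means of wt and mutant arrays did not overlap, and the slope of the covariate came from differences within groups. This fit carries that slope across the gap, so genotype and marker level cannot be told apart by it. After TGFb for 24 h 0 of the 12 markers were called higher and 1 lower in each genotype. Of all genes 7.14%, 4.12% and 5.51% were called lower in wt, heterozygous and homozygous cells. With the same covariate the Mmp9 rises at 24 h were 3.07, 2.16 and 2.31 in wt, heterozygous and homozygous cells, all called. All 5 neutrophil markers lay under 5 in every array, with means of 2.18 to 2.28.

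**Figure D3:**
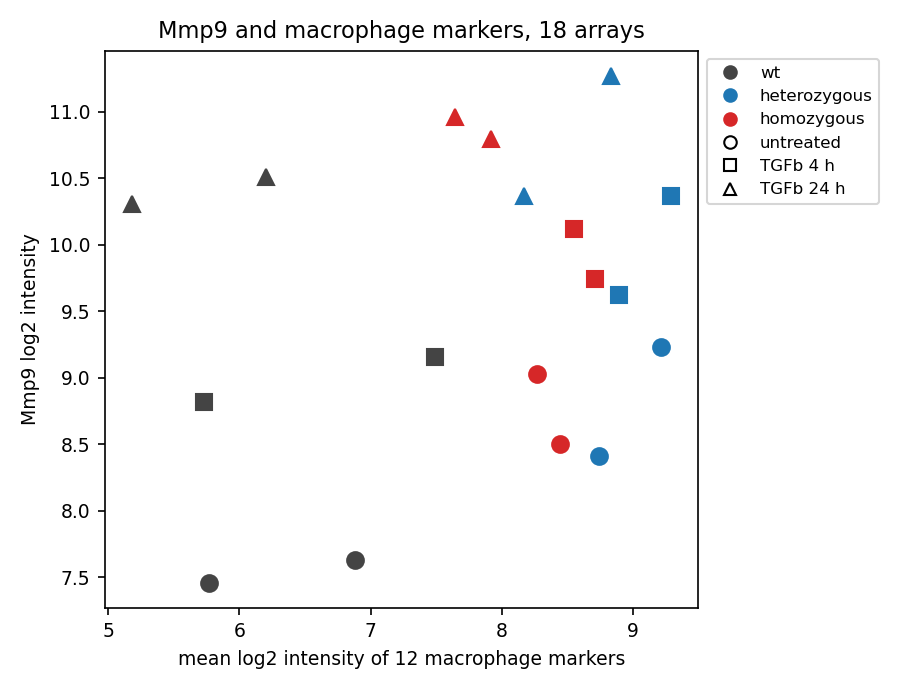
Log2 intensity of Mmp9 (vertical axis) against the mean log2 intensity of 12 macrophage markers (horizontal axis), 1 point per array, with colour for genotype and shape for treatment. The wt arrays lie at marker means of 5.18 to 7.49 and the mutant arrays at 7.64 to 9.29, and within each genotype the arrays at 24 h have the highest Mmp9 or, in 1 heterozygous pair, a shared value of 10.37.

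Mmp2 (gelatinase A), which fibroblasts make constitutively, was bright in all arrays and moved by small steps. It was 12.44 and 12.57 in untreated wt cells, 12.41 and 12.01 at 4 h and 12.94 and 13.08 at 24 h. In heterozygous cells it was 12.84 and 12.77, then 12.69 and 12.71, then 13.26 and 13.03. In homozygous cells it was 13.13 and 13.17, then 12.67 and 12.91, then 13.23 and 13.36. On this probe set the levels at 4 h lay under the untreated ones and those at 24 h over them in each genotype, without overlap, though few of these steps were called.

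In wt cells Mmp2 rose by 0.50 (SE 0.12, limma adjusted p = 0.0206) at 24 h. In homozygous cells it fell by 0.36 on the log2 scale (SE 0.12, adjusted p = 0.0382) at 4 h. The other treatment differences were -0.29 (wt, 4 h), -0.11 and 0.34 (heterozygous, 4 h and 24 h) and 0.15 (homozygous, 24 h), and none passed the threshold. The wt call at 24 h was lost without the second 24 h array or the first untreated array (adjusted p = 0.14 and 0.0693), under array weights (0.134) and in a fit of those groups alone (0.124). The homozygous call at 4 h was lost without the first 4 h array or either untreated array (adjusted p = 0.272, 0.112 and 0.146), with the mean of the probe sets of the gene (-0.26, adjusted p = 0.143), without the filter on low values (0.0734) and without the intensity trend (0.0594).

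From 4 h to 24 h of TGFb, 3 of the 9 genes were called in wt (Mmp2, Mmp9, Mmp23), 2 in heterozygous (Mmp2, Mmp23) and 3 in homozygous cells (Mmp2, Mmp9, Mmp23), and in each Mmp23 was the member called lower. Of all genes 34.3% were called in wt cells (15.1% higher, 19.2% lower), 32.2% in heterozygous (14.9% higher, 17.3% lower) and 36.9% in homozygous cells (14.9% higher, 22.0% lower). Mmp2 rose over this interval in all 3 genotypes, by 0.79 in wt (limma adjusted p = 0.000707), 0.45 in heterozygous (adjusted p = 0.0158) and 0.50 in homozygous cells (adjusted p = 0.00758). Mmp9 rose by 1.42 in wt (adjusted p = 0.00674) and 0.96 in homozygous cells (adjusted p = 0.0391), and its difference of 0.83 in heterozygous cells did not pass (adjusted p = 0.0735). The heterozygous Mmp2 call was lost without the first 24 h or either 4 h array (highest adjusted p = 0.138), the homozygous one without the second 24 h or first 4 h array (highest 0.0843). The wt Mmp2 call was lost in a fit of those groups alone (0.0922), and the wt Mmp9 call there (0.0682) and under array weights (0.118). The homozygous Mmp9 call was lost without any 1 of its 4 arrays (highest 0.2), without the filter (0.0759), with the mean of probe sets (0.0566) and without the intensity trend (0.0501).

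Between untreated genotypes Mmp2 was the 1 gene of the 9 called in homozygous against wt cells, where 1.77% of all genes were called (1.15% higher, 0.615% lower). It was higher by 0.64 (SE 0.12, 1.56-fold, limma adjusted p = 0.0305). The heterozygous level lay between, 0.30 over wt (SE 0.12, adjusted p = 0.457), and the 3 pairs of arrays did not overlap. The homozygous call was lost without the second untreated wt array or either homozygous array (adjusted p = 0.0622, 0.179 and 0.232), under array weights (adjusted p = 0.119) and in a fit of those groups alone (adjusted p = 0.206). In heterozygous against wt cells limma called 0 of the 9, 2 of the 9 had an unadjusted p under 0.05, and 0.923% of all genes were called (0.774% higher, 0.149% lower). In homozygous against heterozygous cells it called 0 of the 9, 1 of the 9 had an unadjusted p under 0.05, and the share of all genes was 0%.

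The other probe set of Mmp2 was called in wt cells at 24 h (0.58, limma adjusted p = 0.0349) and from 4 h to 24 h in wt cells (0.72, adjusted p = 0.00525). It was called in no other of the 16 comparisons, where the steps at 4 h were -0.13 in wt, 0.05 in heterozygous and -0.17 in homozygous cells, none called.

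Markers of fibroblasts also changed. Of 8 listed, 2, 5 and 6 were called lower at 4 h in wt, heterozygous and homozygous cells, with medians of -0.16, -0.30 and -0.44. Of all genes 11.4%, 13.2% and 17.5% were called lower there. From 4 h to 24 h 4 were called higher in each genotype, with medians of 0.34, 0.26 and 0.31, where 15.1%, 14.9% and 14.9% of all genes were called higher. The part of these markers in the Mmp2 result was not tested.

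The stromelysins Mmp3 and Mmp10 and the collagenase Mmp13 lie in one run of 10 Mmp genes on chromosome 9, in the order Mmp13, Mmp12, Mmp1b, Mmp3, Mmp1a, Mmp10, Mmp8, Mmp27, Mmp20 and Mmp7. RefSeq upstream windows (build GRCm38.p6) were found for 6 members, and none was used for Mmp2, Mmp9 and Mmp19. The 250 bases before the transcript start are shown for these 3 genes, which share a pair of motifs, and for Mmp11, called lower after TGFb in homozygous cells, which has neither. Capitals mark TGANTCA, the letters that AP-1 (Fos and Jun dimers) is known to bind, and TATAAA, the letters of a TATA box. The windows are chr9:7445572-7445821 (plus strand) for Mmp3, chr9:7502092-7502341 (plus strand) for Mmp10, chr9:7272264-7272513 (plus strand) for Mmp13 and chr10:75932503-75932752 (minus strand) for Mmp11.
Mmp3: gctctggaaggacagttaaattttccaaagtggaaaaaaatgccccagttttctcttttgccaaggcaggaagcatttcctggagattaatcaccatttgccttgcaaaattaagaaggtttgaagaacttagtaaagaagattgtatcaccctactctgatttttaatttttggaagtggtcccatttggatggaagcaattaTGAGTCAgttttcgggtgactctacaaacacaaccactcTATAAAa
Mmp10: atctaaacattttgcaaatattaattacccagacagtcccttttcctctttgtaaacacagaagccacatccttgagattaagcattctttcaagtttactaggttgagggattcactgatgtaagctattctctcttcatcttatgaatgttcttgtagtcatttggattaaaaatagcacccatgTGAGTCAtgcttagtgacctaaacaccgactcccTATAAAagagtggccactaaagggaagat
Mmp13: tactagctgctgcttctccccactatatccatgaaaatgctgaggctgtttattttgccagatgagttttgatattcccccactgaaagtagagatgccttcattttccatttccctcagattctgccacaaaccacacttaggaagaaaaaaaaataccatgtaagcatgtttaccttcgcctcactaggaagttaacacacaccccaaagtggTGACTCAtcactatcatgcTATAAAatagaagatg
Mmp11: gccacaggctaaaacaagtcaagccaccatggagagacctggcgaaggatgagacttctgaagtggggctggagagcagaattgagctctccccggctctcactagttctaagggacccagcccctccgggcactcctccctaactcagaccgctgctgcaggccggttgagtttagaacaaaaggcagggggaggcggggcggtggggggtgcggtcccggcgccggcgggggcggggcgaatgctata

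The AP-1 letters began at -46 in Mmp3, -63 in Mmp10 and -35 in Mmp13, counted from the annotated start site. The letters TATAAA began at -7, -29 and -16, and whether they work as a TATA box at these positions was not tested. Both strands were searched, and TGANTCA reads the same on both. Of 32851 RefSeq windows of this length, 6.75% held TGANTCA, 12.37% held TATAAA and 1.21% held both. Of 21 windows of Mmp genes 7 held both, those of Mmp1a, Mmp1b, Mmp7 and Mmp20 besides these 3. All lie in the run on chromosome 9, so the pair is not particular to the 3 members. The letters CAGAC, searched as a Smad motif, were found in Mmp10, Mmp11 and Mmp23, and in 42.19% of all windows. The windows of Mmp14 and Mmp23 held neither. A match is a description of the letters, and no binding was measured here.

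Mmp10 (stromelysin 2), which cuts proteoglycans and other matrix proteins and can activate other Mmp proenzymes, was dim in untreated cells and was called higher in 3 of the 6 treatment comparisons. Its untreated levels were 4.36 and 3.86 in wt, 4.04 and 3.97 in heterozygous and 4.09 and 4.16 in homozygous cells, all under 5. At 24 h they were 5.50 and 5.41, 6.37 and 4.98, and 5.32 and 5.19. At 4 h they were 4.52 and 4.59, 5.03 and 4.74, and 5.35 and 5.05. Above 5 were 5 of the 6 arrays at 24 h and 3 of the 6 at 4 h, all of which lay over the untreated arrays; the other treated arrays, both wt arrays at 4 h among them, have no order against untreated cells.

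Mmp10 was at least 1.37-fold higher at 24 h in wt cells (limma adjusted p = 0.0251) and at least 1.60-fold in heterozygous cells (adjusted p = 0.0106), where 1 of the 2 treated arrays was still under 5. It was at least 1.15-fold higher at 4 h in homozygous cells (adjusted p = 0.0278). At 24 h the bound there was 1.20-fold, and the difference was not called (limma adjusted p = 0.065). At 4 h wt and heterozygous cells were not called (adjusted p = 0.392 and 0.0764).

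Leaving out arrays ended each of these calls. The wt call was lost without either 24 h array or the second untreated array (adjusted p = 0.102, 0.0939 and 0.142), under array weights (0.257) and in a fit of those groups alone (0.136). The heterozygous call was lost without the first 24 h array or either untreated array (0.0978, 0.0612 and 0.0779) and in a fit of those groups alone (0.123). The homozygous call at 4 h was lost without any 1 of its 4 arrays (highest adjusted p = 0.15), and with log2 of the value plus 16 (adjusted p = 0.0509).

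Mmp3 (stromelysin 1), which cuts a wide range of matrix proteins, lay around the dim limit, from 3.23 to 5.77, and was called in none of the 16 comparisons. Mmp13 (the main interstitial collagenase of mouse cells) ran from 3.43 to 6.95 and was also called in none. The arrays of 1 group differed widely for it. Untreated wt cells read 3.43 and 5.76, wt cells at 4 h 6.19 and 4.18, and wt cells at 24 h 6.88 and 3.47. Its SD within a group was 0.63 to 2.41, so that all neighbours in the order of its 9 group means overlapped, as they also did for Mmp3.

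The arrays also differed in a way that the labels do not name. Xist, the RNA that silences an X chromosome in female cells, was at 10.11 to 11.76 in some arrays and at 2.33 to 2.67 in the others, and in 6 of the 9 groups, those of wt and homozygous cells, the 2 arrays differed in it. In these 6 pairs Mmp13 read above 5 in the Xist-low array, at 5.76, 6.19 and 6.88 in wt and 6.47, 6.95 and 6.07 in homozygous cells. The Xist-high array was lower in each, and under 5 in 4 of the 6. The heterozygous arrays were all Xist-high, and their pairs differed as well, at 5.92 and 4.17 untreated, 6.65 and 5.47 at 4 h and 6.66 and 4.29 at 24 h, so that a wide spread was also present where Xist did not differ. Mmp11 was higher in the Xist-low array in 5 of the 6 pairs, by up to 1.02, and equal after rounding in the untreated homozygous pair. On its brightest probe set Mmp9 was lower in the Xist-low array in all 6 pairs (low minus high -0.53 to -0.16). On its second probe set the Xist-low array was higher in untreated wt cells (7.26 against 5.87) and wt cells at 24 h (10.13 against 9.96). It was lower in the other pairs. Mmp3, around the dim limit, was measured higher in the Xist-low array in all 6 (0.04 to 1.22). Both of its arrays were under 5 in untreated homozygous cells (4.79 and 4.86) and at 24 h (4.02 and 4.06), where values have no order. The remaining members went in both directions. The untreated Mmp9 difference of the heterozygous cells stayed uncalled with Xist class as a covariate. Those cells are all Xist-high, so the slope of the covariate came from wt and homozygous pairs. What Xist class adds to that difference cannot be told from it. The pairs were described after the values were seen. With Xist class as a covariate, also chosen after the values were seen, no reported call of a member was lost, and 1 was gained, Mmp11 in heterozygous cells at 24 h (-0.74, limma adjusted p = 0.0424). In wt cells the Xist-low array was the second untreated array but the first at 4 h and 24 h.

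**Figure D4:**
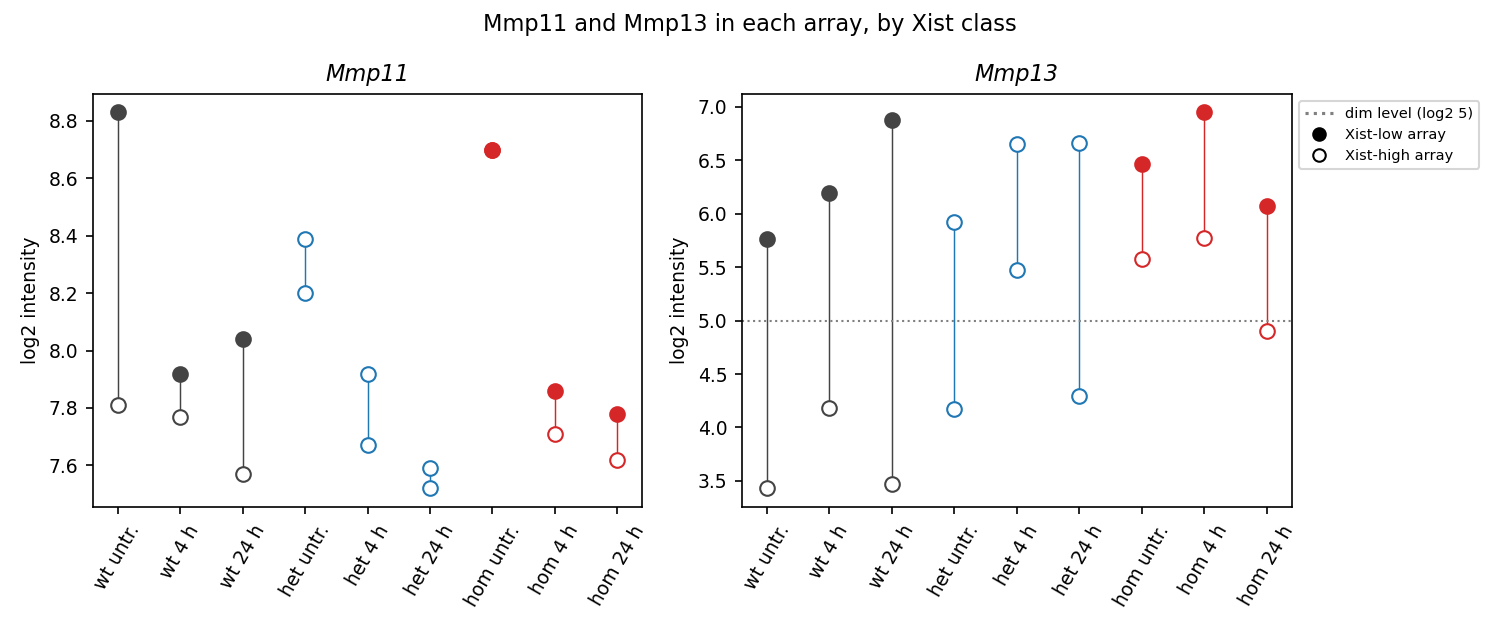
Log2 intensity (vertical axis) of Mmp11 and Mmp13 in the 2 arrays of each of the 9 groups (horizontal axis), with filled dots for Xist-low and open dots for Xist-high arrays and colour for genotype (het, heterozygous; hom, homozygous); the dotted line is the dim level of 5, below which values have no order. The filled Mmp13 dots of the wt and hom groups lie at 5.76 to 6.95, and the het pairs, both open, also lie apart.

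Mmp11 (stromelysin 3), an enzyme that furin activates inside the cell and that stromal cells make during remodelling, fell after TGFb in homozygous cells. It was 8.70 and 8.70 untreated, 7.71 and 7.86 at 4 h, and 7.62 and 7.78 at 24 h, with no overlap. It was 1.89-fold lower at 4 h (limma adjusted p = 0.0132) and 2.01-fold lower at 24 h (adjusted p = 0.0257), each with an SE of 0.25 on the log2 scale. Heterozygous arrays read 8.39 and 8.20, then 7.92 and 7.67, then 7.59 and 7.52, which also did not overlap but did not pass (-0.50 and -0.74, adjusted p = 0.155 and 0.113). Wt arrays read 7.81 and 8.83 untreated, and the differences of -0.47 and -0.52 did not pass (adjusted p = 0.201 and 0.227).

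The difference of the homozygous from the wt response of Mmp11 was -0.45 (95% interval -1.22 to 0.33) at 4 h and -0.49 (-1.26 to 0.29) at 24 h. Without the first untreated wt array, the wt differences were -0.98 and -1.02 and were called (adjusted p = 0.00864 and 0.00466), and without the second they were 0.035 and -0.008. The homozygous call at 24 h was lost without any 1 of its 4 arrays (highest adjusted p = 0.173) and without the filter on low values (0.0546). That at 4 h was lost without the first 4 h array or either untreated array (highest 0.0821).

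Mmp14 (MT1-MMP), the membrane-bound enzyme that activates Mmp2 at the cell surface, was bright and nearly level. Its brightest probe set read 12.92 to 13.33 over the 18 arrays and was called in none of the 16 comparisons. All neighbours in the order of its group means overlapped. A second probe set behaved otherwise at 4 h. It read 12.02 and 12.02 untreated against 12.56 and 12.73 at 4 h in heterozygous cells, a rise of 0.63 (SE 0.13, limma adjusted p = 0.00365). In homozygous cells it read 12.14 and 12.18 against 12.45 and 12.57, a rise of 0.35 (SE 0.13, adjusted p = 0.0438). In wt cells its 4 h levels of 12.27 and 12.33 lay beside 12.25 and 12.24 untreated and were not called. The remaining probe set, at 8.73 to 9.39, was called lower from 4 h to 24 h in heterozygous cells (-0.42, adjusted p = 0.0398), as was the second (-0.43, adjusted p = 0.0227). The probe sets of Mmp14 therefore disagreed on whether the gene was called at 4 h.

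Mmp19, a secreted enzyme that cuts basement membrane components, was dim, and in the main fit no comparison called it. The probe set that passed read 5.83 and 4.53 in untreated wt cells, 4.15 and 3.66 at 4 h and 5.10 and 5.09 at 24 h. In homozygous cells it read 5.83 and 5.93 untreated, 4.21 and 4.96 at 4 h and 5.28 and 5.21 at 24 h. The 4 h arrays lay under the untreated ones in homozygous cells, where the level was at least 1.84-fold lower (limma adjusted p = 0.0544). In wt cells 1 of the 2 untreated arrays was under 5 too, so that the arrays have no full order, and the bound was 1.14-fold (adjusted p = 0.0829). Heterozygous arrays at 4 h, at 5.72 and 4.04, overlapped the untreated 5.91 and 5.42. Under 12 alternatives other than leaving out an array, the homozygous fall at 4 h was called in 7. Among these were array weights (limma adjusted p = 0.00303), those groups alone (0.0116) and log2 of the value plus 16 (0.0442). The wt fall at 4 h was called in 2, both with a replicate block within genotype. The other probe set was between 2.61 and 3.17 throughout.

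Mmp23, an atypical member anchored in the membrane by its amino-terminal part, moved late. It read 10.35 and 10.26 in untreated wt cells, 10.12 and 10.92 at 4 h and 9.18 and 9.60 at 24 h. In heterozygous cells it read 10.22 and 10.14, then 10.37 and 10.26, then 9.37 and 9.15. In homozygous cells it read 9.83 and 10.33, then 10.24 and 10.67, then 8.93 and 9.48. The 24 h arrays were the lowest of each genotype, without overlap.

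From 4 h to 24 h Mmp23 fell by 1.13 on the log2 scale in wt (SE 0.26, limma adjusted p = 0.00624), by 1.05 in heterozygous (adjusted p = 0.00888) and by 1.25 in homozygous cells (adjusted p = 0.00315). Its second probe set fell by 1.26, 0.87 and 1.14 over the same interval, all called. Against untreated cells the differences at 24 h were close to each other, -0.91 in wt, -0.92 in heterozygous and -0.87 in homozygous cells (SE 0.26 each), but they stood on both sides of the threshold (adjusted p = 0.0398, 0.0519 and 0.0585). On the second probe set they were -0.91, -0.65 and -0.93 and were called in none (adjusted p = 0.0679, 0.293 and 0.0798). The interactions at 24 h were -0.01 (95% interval -0.81 to 0.79) and 0.04 (-0.76 to 0.84). On the brightest probe set the 24 h differences of heterozygous and homozygous cells were called under array weights (limma adjusted p = 0.0124 and 0.00381). They were also called with the macrophage marker covariate (limma adjusted p = 0.0199 and 0.035). The heterozygous one was called in a fit of those groups alone (limma adjusted p = 0.0189). The wt call against untreated was lost without any 1 of its 4 arrays (highest adjusted p = 0.214), under array weights (0.287), without the filter (0.0806), without the intensity trend (0.0532) and in a fit of those groups alone (0.124). From 4 h to 24 h the wt call was lost without the first 24 h or second 4 h array (adjusted p = 0.0523 and 0.0709), under array weights (0.086) and in a fit of those groups alone (0.123), and the heterozygous one without the second 24 h or first 4 h array (0.0641 and 0.0534).

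Of 5 listed inhibitors of these enzymes 4 were measured, and 2 were called higher at 4 h in each genotype, Timp1 and Timp3, both TIMP proteins, where 9.49%, 15.7% and 20.1% of all genes were called higher in wt, heterozygous and homozygous cells. In homozygous cells 1 was also called lower. At 24 h 1 was called higher, Timp1, and 1 lower, Reck, in each genotype, where 4.51%, 2.95% and 3.10% of all genes were called higher and 7.14%, 4.12% and 5.51% lower. Timp1 rose by 0.94, 1.01 and 1.06 at 4 h in wt, heterozygous and homozygous cells and by 0.56, 0.67 and 0.80 at 24 h, all called (highest limma adjusted p = 0.04). Timp3 rose by 1.41, 1.54 and 1.21 at 4 h and fell again from 4 h to 24 h by 0.96, 1.10 and 0.73. Reck, which restrains Mmp2, Mmp9 and Mmp14 at the membrane, fell by 0.92, 0.71 and 0.82 on the log2 scale at 24 h, and by 0.51 at 4 h in homozygous cells. Between untreated genotypes 0 of the 4 were called by limma.

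Among genes of Mmp activation, 8 of 12 listed were measured. At 4 h 3, 4 and 4 were called higher in wt, heterozygous and homozygous cells, and 2 in each genotype at 24 h, with 0 lower, against the same shares of all genes. From 4 h to 24 h 1, 2 and 2 were called higher and 3 lower in each, where 19.2%, 17.3% and 22.0% of all genes were called lower. Plaur, the urokinase receptor, rose by 1.48, 1.86 and 2.06 at 4 h and fell by 1.46, 1.68 and 1.54 from 4 h to 24 h. Serpinb2, an inhibitor of plasminogen activators, rose by 2.94 in wt cells and at least 7.66-fold and 6.42-fold in heterozygous and homozygous cells at 4 h. It thus acts against activation, although it is on this list. Furin rose in all 6 treatment comparisons, by 0.51 to 1.11. Pcsk5, another proprotein convertase, rose by 2.04, 2.30 and 2.13 at 24 h, and was 1.04 higher in untreated homozygous than wt cells (limma adjusted p = 0.0363).

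Of 12 listed transcription factors of the AP-1 and ETS families and Runx2, 11 were measured. In wt cells at 4 h 3 were called higher (Fosl1, Junb and Fosb, the last at means under 5 in both groups) and 3 lower (Fos, Ets2 and Etv5), with 3 and 4 in heterozygous and 3 and 3 in homozygous cells, where 20.9%, 28.8% and 37.7% of all genes were called in either direction. At 24 h 0 were called higher and 2 lower in each genotype, Fos and Fosl2, against 7.14%, 4.12% and 5.51% of all genes called lower. Junb rose by 1.54, 1.65 and 1.47 at 4 h, and Fos fell by 1.81, 1.72 and 1.58 on the log2 scale at 24 h. Of 14 other Mmp genes listed, 3 were measured (Mmp12, Mmp16 and Mmp17), and the 1 call was Mmp12, a macrophage enzyme, at least 1.33-fold lower from 4 h to 24 h in homozygous cells (limma adjusted p = 0.0494).

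The genes whose 9 group means ran most like those of a called member, by Pearson correlation as a description over groups that share genotypes and times, were as follows. For Mmp2 they were Thbs2 (0.983), Tmc6 (0.983) and Tmem119 (0.982). For Mmp9 they were Garre1 (0.987), Plin2 (0.985) and Rab15 (0.976). For Mmp10 they were Sgtb (0.983), Fgf21 (0.956) and Olr1 (0.951), and for Mmp11 Lamb2 (0.976), Dzip1 (0.975) and Nab1 (0.972). For Mmp23 they were Nsg1 (0.993), Mtmr14 (0.992) and Sgce (0.992).

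Over the whole series, 39.55% to 40.40% of the 45101 probe sets of an array reached the dim limit. All 8 fibroblast markers passed the filter, with a mean level of 13.12 to 13.90, and of 5 endothelial markers 4 lay under 5 in both arrays of every group. Of 5 epithelial markers 3 passed the filter (mean of the list 4.76 to 5.47), of 7 cartilage and bone markers 3 (mean 4.90 to 5.55), and of 5 skeletal muscle markers 3 (mean 4.40 to 5.92). The root mean square SD of replicate arrays over all genes was 0.32 to 0.39 in wt groups and 0.18 to 0.22 in mutant groups.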

How the data were processed

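RNA of 18 samples was hybridised to 1-colour Affymetrix arrays of 45101 probe sets, and the deposited values are linear intensities made by the authors with GCRMA, a method that corrects background by probe sequence and sums probes into probe sets, per the submitters' processing notes, which name it; its version is not given in the sources used here. The values are on a linear scale, as their range shows. Low values carry little order, and the number of arrays limits the precision. Groups follow the sample titles.

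Log2 of the values was taken with no offset. Probe sets at or above 5 in at least 2 of 18 arrays, with 1 gene symbol in the platform annotation, were kept (the filter left 18958 probe sets), and the probe set with the highest mean stood for each of 10078 genes. One mean per group was fitted with limma 3.58.1 (R 4.3.3; lmFit, eBayes with an intensity trend, 9 residual degrees of freedom) over all 18 arrays, for 16 comparisons; p-values were adjusted by Benjamini-Hochberg and genes called at an adjusted p under 0.05. The fit was tested on simulated data. The named genes are the 9 members, called members of 4 lists (up to 4 of the largest changes per comparison) and the 3 genes most like each called member. The members and lists were chosen with earlier results of these data known.

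A bound sets the mean of the brighter group against the dim limit, or against the dim group's own values where higher. Alternatives were quantile normalization, no filter, an offset of 16, mean of probe sets, no trend, array weights, a fit over probe sets, a fit of the compared groups alone, replicate blocks, and each array left out; covariates for Xist class and macrophage markers and a crossed block were added after the data were seen. RefSeq windows were matched by symbol.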

Additional observations from a re-analysis of the deposited data

How the results depend on the processing

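The direction and the side of the threshold were compared for 53 log2 differences of Mmp2, Mmp9, Mmp10, Mmp11, Mmp19 and Mmp23 on their brightest probe sets. The list genes, the other probe sets and the interactions of Mmp11 and Mmp23 were not recomputed. Under alternatives other than leaving out an array, 561 of these comparisons kept both, 28 lost the call, 46 gained one and 1 changed sign (Mmp19 in wt cells at 24 h, 0.081 with the macrophage marker covariate). With 1 array left out, 168 kept both, 47 lost the call, 7 gained one and 6 changed sign. Those changes of sign fell in Mmp11, wt 4 h (range -0.981 to 0.035), Mmp23, wt 4 h (-0.18 to 0.62), Mmp19, wt 24 h (-0.74 to 0.56) and heterozygous 4 h (-1.628 to 0.053), and the Mmp9 heterozygous minus wt response at 4 h (-0.68 to 0.14). The number of members called in wt cells at 4 h was 1, against 0 with array weights or the compared groups alone and 0 to 2 with an array left out. At 24 h it was 4, against 1 with array weights, 1 with the compared groups alone, and 1 to 3. In heterozygous cells at 4 h it was 1, against 2 with the mean of probe sets, 2 with array weights, and 0 to 1. At 24 h it was 2, against 5 with array weights, 4 with the macrophage covariate, and 1 to 2. In homozygous cells at 4 h it was 4, against 0 to 3 with an array left out. At 24 h it was 2, against 1 with no filter, 4 with array weights, 4 with the macrophage covariate, 5 with the compared groups alone, and 1 with any array left out. For homozygous against wt untreated cells it was 1, against 2 with the mean of probe sets, 0 with array weights, 2 with the macrophage covariate, 0 with the compared groups alone, and 0 to 1. From 4 h to 24 h it was 3 in wt cells, against 1 with array weights, 0 with the compared groups alone, and 2 to 3; 2 in heterozygous cells, against 4 with the macrophage covariate, and 1 to 3; and 3 in homozygous cells, against 1 to 2 with an array left out. The cause of these changes was not tested. Where an array was left out, the lone array was assumed to vary like the other groups.

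The arrays share replicate numbers 1 and 2, but no label says that a number marks a shared source. Within a genotype the differences between the arrays of 2 groups correlated over genes at 0.38 to 0.61 in mutant cells and 0.57 between the treated wt groups, but at -0.49 and -0.66 between untreated and treated wt groups. With the replicate number as a block over all groups, the members called in homozygous cells at 24 h were 4. With a replicate block within genotype they were 2 in wt cells at 4 h, 1 in heterozygous and 2 in homozygous against wt untreated cells, and 5 in wt cells from 4 h to 24 h. Mmp23 at 24 h was then called in heterozygous and homozygous cells (limma adjusted p = 0.0303 and 0.0335 with the block over all groups, 0.00795 and 0.00889 within genotype). Mmp9 was called in untreated heterozygous and homozygous against wt cells with the block within genotype (limma adjusted p = 0.00187 and 0.00293). That block, like the crossed one below, takes the difference between replicate numbers out of the spread. Its p-values between genotypes leave out any spread between sources that the numbers mark, and would then be too small. With the wt numbers crossed, an alternative chosen after the data were seen, the counts were 2 (wt 4 h), 6 (heterozygous 4 h), 4 (heterozygous 24 h), 4 (homozygous 24 h), 1 and 3 (heterozygous and homozygous against wt), and 5, 4 and 5 (wt, heterozygous and homozygous, 4 h to 24 h). The count of all genes called in wt cells at 4 h was 2108, and ran from 24 with the compared groups alone to 3382 with an array left out.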
